A study of Mus musculus with 3 samples.

Results

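The genes of homologous recombination and of the Fanconi anemia pathway were followed in RAW 264.7 cells, a mouse macrophage line from an Abelson virus tumour (ascites; passages 10 to 15). They were chosen by symbol from a list of 38 genes for strand exchange, crosslink repair and fork protection, and 36 of the 38 had a row among the 46078 genes of the deposited table. RNA was taken after 12 hours from 3 cultures. The first received 0.5 mM hydroxyurea (HU) together with gold nanocages, hollow gold particles, the second 0.5 mM HU without nanocages, and the third was the untreated control. The nanocage dose is not stated in the labels. Each condition is 1 library, so no difference below has a replicate check and no test between conditions was possible. Intervals are exact 95% intervals (Clopper-Pearson) from read counts and cover counting error only.

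Homologous recombination repairs a broken DNA end by copying an intact sister duplex. The end is first resected to single strands, BRCA1 and BRCA2 with their partners then prepare these for pairing with the sister, and the paralog and RAD54 proteins help the strands to exchange. The Fanconi pathway deals with crosslinks and stalled forks: a core complex with the E2 enzyme UBE2T attaches ubiquitin to FANCD2 and FANCI, which direct nucleases to the lesion. HU inhibits ribonucleotide reductase, which supplies DNA precursors, and so slows or stalls forks.

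The summed counts were 18644333 in HU plus gold nanocages, 20057329 in HU and 14990564 in control, and the 36 genes held 29757, 31529 and 22578 of these reads in the same order. All 6 macrophage markers examined reached a mean of 1 FPKM (fragments per kilobase of exon, scaled to the library's total), with a summed level of 2287, 2362 and 2491 FPKM in that order. None of 13 markers of lymphocytes, fibroblasts and granulocytes did, and 9 of these 13 had no read in any library. In bulk RNA, fewer cells of a given state and less RNA per cell cannot be told apart.

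Across the 36 genes the differences were small. No gene was 2-fold apart in any of the 3 contrasts. The extremes were Ube2t, lower in both libraries given HU, and Fancf, higher in the library with nanocages. The promoters of these 2 genes are shown first because they are the members at least 1.5-fold apart in any contrast. Those of Xrcc3 and Rad52 follow, a pair of recombination genes above counting error against control in both libraries given HU. Brca2, Fancc and Slx4 met the same rule and had a promoter entry, and are not shown. With 99% intervals neither Xrcc3 nor Rad52 was above counting error in HU against control. Each sequence is 300 bases, 250 before and 50 after the start site, from RefSeq on GRCm38.p6, the assembly also known as mm10. They lie at chr1:134962315-134962614 on the plus strand (Ube2t), chr7:51862218-51862517 on the minus strand (Fancf), chr12:111813830-111814129 on the minus strand (Xrcc3) and chr6:119902448-119902747 on the plus strand (Rad52). Capitals mark E2F cores (TTCCCGC or TTGGCGC), CHR elements (TTTGAA or TTCGAA) and CCAAT boxes (CCAAT), searched on both strands.
Ube2t: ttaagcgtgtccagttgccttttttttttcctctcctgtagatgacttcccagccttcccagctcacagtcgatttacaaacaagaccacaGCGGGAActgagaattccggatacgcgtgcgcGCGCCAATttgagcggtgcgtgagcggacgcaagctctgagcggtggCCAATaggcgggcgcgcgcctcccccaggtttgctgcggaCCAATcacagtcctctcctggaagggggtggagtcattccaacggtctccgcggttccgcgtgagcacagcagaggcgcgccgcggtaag
Fancf: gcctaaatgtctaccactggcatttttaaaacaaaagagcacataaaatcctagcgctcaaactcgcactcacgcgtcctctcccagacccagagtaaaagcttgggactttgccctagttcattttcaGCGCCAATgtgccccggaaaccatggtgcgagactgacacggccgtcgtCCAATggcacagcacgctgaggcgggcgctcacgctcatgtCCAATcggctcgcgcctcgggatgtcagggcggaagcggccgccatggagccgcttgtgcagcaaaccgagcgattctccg
Xrcc3: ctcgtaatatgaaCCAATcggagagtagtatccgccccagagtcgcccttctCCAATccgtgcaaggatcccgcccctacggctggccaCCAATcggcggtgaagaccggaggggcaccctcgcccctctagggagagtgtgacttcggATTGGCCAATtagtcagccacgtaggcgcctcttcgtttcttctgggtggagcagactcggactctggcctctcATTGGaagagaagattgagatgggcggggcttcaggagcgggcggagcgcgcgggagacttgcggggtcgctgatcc
Rad52: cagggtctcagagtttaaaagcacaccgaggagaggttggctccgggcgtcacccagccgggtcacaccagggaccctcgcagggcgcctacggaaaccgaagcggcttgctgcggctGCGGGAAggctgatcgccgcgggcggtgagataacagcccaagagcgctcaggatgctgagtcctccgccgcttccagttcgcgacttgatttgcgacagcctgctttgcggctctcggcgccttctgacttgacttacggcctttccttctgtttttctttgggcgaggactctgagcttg

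In the Ube2t promoter an E2F core overlaps the first of 3 CCAAT boxes, which start at positions -124, -80 and -40, with the start site at 0. The Fancf promoter has the same overlap, with 3 CCAAT boxes at -118, -72 and -31. Ube2t has a further E2F core at -159, Xrcc3 holds 6 CCAAT boxes and no E2F core, and Rad52 holds 1 E2F core at -132 and no CCAAT box. Among 31 promoter entries found for 27 of the 36 genes, 13 (41.9%) hold an E2F core, against 12.8% of 9694 promoters of genes at a mean of 1 FPKM or more and 6.81% of all 32851. CCAAT boxes occur in 19 (61.3%), against 38.2% and 37.4%. CHR elements occur in 6 (19.4%), against 14.0% and 19.2%. The median GC content is 58.0%, against 61.0% and 52.7%. An E2F core and a CHR element occur together in 1 of the 31 entries, that of Bard1. The E2F and CCAAT letters can overlap, and a match of letters is not a measured binding site. No promoter entry was used for Exo1, Fancd2, Nbn, Rad50, Rad51d, Rad54b, Rbbp8, Tonsl and Xrcc2.

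All 36 genes reached a mean of 1 FPKM over the 3 libraries. Their median level was 7.58 FPKM in HU plus gold nanocages, 7.04 FPKM in HU and 6.50 FPKM in control. The median of the 10849 genes that reached that mean was 10.62, 10.65 and 10.62 FPKM in the same order. The most abundant per length were Rad50 and Mre11a, subunits of the MRN end-sensing complex, the helicase-like motor gene Rad54l and Tonsl, which reads newly made chromatin. Rad50 was at 19.57, 17.85 and 15.89 FPKM in HU plus gold nanocages, HU and control. Tonsl was at 18.24, 19.13 and 17.09 FPKM in that order. At the low end stood Zranb3, a fork-remodelling translocase, at 1.45, 1.54 and 1.30 FPKM, and Fancc, a core complex subunit, at 2.16, 1.97 and 1.62 FPKM. Partners in 1 complex were not at equal levels. Brca1 was at 11.60, 11.09 and 11.80 FPKM, while Brca2 was at 3.92, 3.69 and 3.28 FPKM in the same order. Rad51b, one of the strand exchange paralogs, had the fewest reads, with 96, 103 and 88. FPKM compares genes only as far as the table's exonic sizes are right; for Fancm, Palb2, Rad51b, Rad52 and Rbbp8 these differ by over 1.2-fold from the GENCODE M21 annotation.

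**Figure D1:**
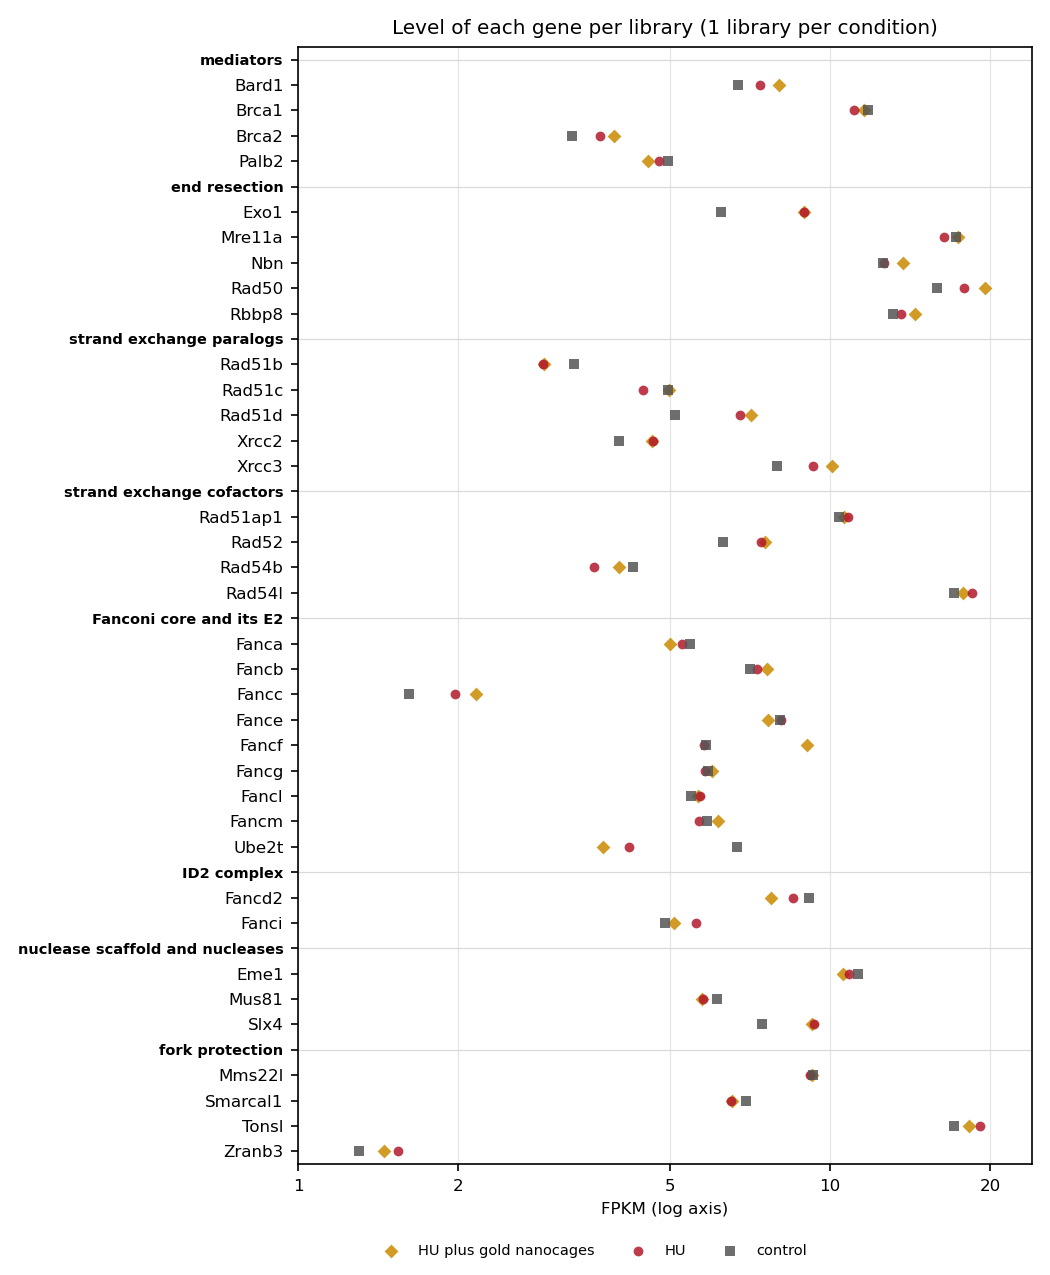
FPKM (log axis) of each of the 36 genes in the 3 libraries, grouped by role; each point is 1 library. Most genes have their 3 points close together, whereas Ube2t and Exo1 have the control point apart and Fancf has the point of HU plus gold nanocages apart, at 9.07 FPKM.

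HU against control asked how the drug alone bears on these genes. Of the 36 genes, 12 (33.3%) were above counting error, meaning an interval of the ratio of CPM (counts scaled to the library total) that excludes 1, beside 18.7% of the 10849 genes with a mean of 1 FPKM or more. Below counting error were 2 (5.56%), beside 20.1%. None was at least 1.5-fold higher, beside 4.53%, and 1 was at least 1.5-fold lower, beside 3.12%. The median log2 ratio was 0.03, against -0.01 over all 10849 genes, and 19 of the 36 lay within 1.1-fold of 1. The share of all genes within 1.1-fold was not computed. The ratio of summed CPM was 1.04 (1.03 to 1.06). With 99% intervals 6 of the 12 stayed above counting error, namely Exo1, Rad50, Rad51d, Rad54l, Slx4 and Tonsl, and Ube2t alone stayed below it.

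Ube2t, the E2 enzyme of the pathway, was the gene lowest relative to control. It had 406 reads and 4.19 FPKM in HU, against 485 reads and 6.70 FPKM in control. That is 1.60-fold lower (1.40 to 1.83), although the HU library was the deeper one. Most subunits of the core complex that UBE2T works with were close to control. Fanca, Fancb, Fance, Fancf, Fancg, Fancl, the E3 ligase subunit, and Fancm, the translocase, all lay within counting error, with ratios of 0.967 for Fanca and Fancm to 1.04 for Fancl. Of the core subunits counted among the 36, Fancc alone was above it, at 311 reads and 1.97 FPKM in HU against 192 reads and 1.62 FPKM in control (1.21-fold, 1.01 to 1.46). Its exons overlap those of 2010111I01Rik, on the other strand, over 185 bases (2.21%). That gene had 572 reads in HU and 349 in control, and the part of the overlap in the Fancc ratio was not tested.

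The ubiquitinated targets of the core complex and UBE2T lay on opposite sides of 1. Fanci was at 5.59 FPKM in HU and 4.89 FPKM in control (1.14-fold higher, 1.01 to 1.30). Fancd2 was at 8.54 FPKM in HU and 9.12 FPKM in control, a ratio of 0.936 (0.864 to 1.02) that counting error covers. Faap24 and Faap100, core complex partners listed under older symbols in the table, were identified by gene ID and are not counted among the 36. Faap24 had 830 reads in HU and 784 in control (0.791-fold, 0.717 to 0.874). Faap100 had 646 and 405 reads in HU and control (1.19-fold, 1.05 to 1.35). The core complex partners thus lay on both sides of 1 as well.

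End resection genes included the one farthest above control. Exo1, the exonuclease of long-range resection, was at 8.95 FPKM from 1512 reads in HU and 6.24 FPKM from 788 reads in control (1.43-fold higher, 1.32 to 1.57). Rad50 was at 17.85 FPKM in HU and 15.89 FPKM in control (1.12-fold, 1.05 to 1.21). Its MRN partners were within counting error: Mre11a, the nuclease, had a ratio of 0.949 (0.887 to 1.02) and Nbn, the adaptor, one of 1.00 (0.889 to 1.13). Rbbp8, which encodes the resection starter CtIP, was within counting error at 1.03 (0.942 to 1.14).

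The strand exchange paralogs were split. Rad51d, Xrcc2 and Xrcc3 were above counting error, and Rad51b and Rad51c within it. Rad51d was at 6.77 FPKM in HU and 5.12 FPKM in control (1.32-fold, 1.14 to 1.53). Xrcc3 was at 9.30 and 7.96 FPKM in HU and control (1.17-fold, 1.02 to 1.35). Xrcc2, a partner of RAD51D, was at 4.65 and 4.02 FPKM in the same order (1.16-fold, 1.00 to 1.34), with its lower bound just above 1. Rad51c was at 4.45 FPKM in HU and 4.96 FPKM in control, a ratio of 0.896 (0.772 to 1.04) that counting error covers.

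Of the strand exchange cofactors, Rad52, which anneals single strands, was at 7.42 FPKM in HU and 6.29 FPKM in control (1.18-fold, 1.02 to 1.36). Rad54l was at 18.48 and 17.11 FPKM in HU and control (1.08-fold, 1.02 to 1.14). Its relative Rad54b was at 3.60 FPKM in HU and 4.26 FPKM in control (1.18-fold lower, 1.02 to 1.36). Both RAD54 genes thus passed counting error, in opposite directions. Rad54b is uncertain, because 35.8% of its exonic bases overlap Fsbp on the same strand, and it was within counting error once the trend with gene length was subtracted. Rad54l shares 15.4% of its exonic bases with Lrrc41, and Fanci 16.0% with Polg, both on the other strand, and the part of these overlaps in their ratios was not tested. Rad51ap1, which stimulates strand pairing, was within counting error at 1.04 (0.946 to 1.14).

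Among the mediators, Brca2, which works on the resected strands, was the one above counting error, at 3.69 FPKM in HU and 3.28 FPKM in control (1.13-fold, 1.02 to 1.24). Brca1 (0.939, 0.878 to 1.01), its partner Bard1 (1.10, 0.991 to 1.23) and Palb2, the bridge between BRCA1 and BRCA2 (0.962, 0.843 to 1.10), were within it. Slx4, the scaffold that holds structure-specific nucleases, was at 9.32 FPKM from 1432 reads in HU and 7.46 FPKM from 856 reads in control (1.25-fold, 1.15 to 1.36). The nuclease genes Mus81 (0.941) and Eme1 (0.960) were within counting error. Of the fork protection genes, Tonsl was above it at 1.12-fold (1.05 to 1.20). Its partner Mms22l (0.988) and the annealing helicases Smarcal1 (0.937) and Zranb3 (1.18, 0.976 to 1.44) were within it.

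**Figure D2:**
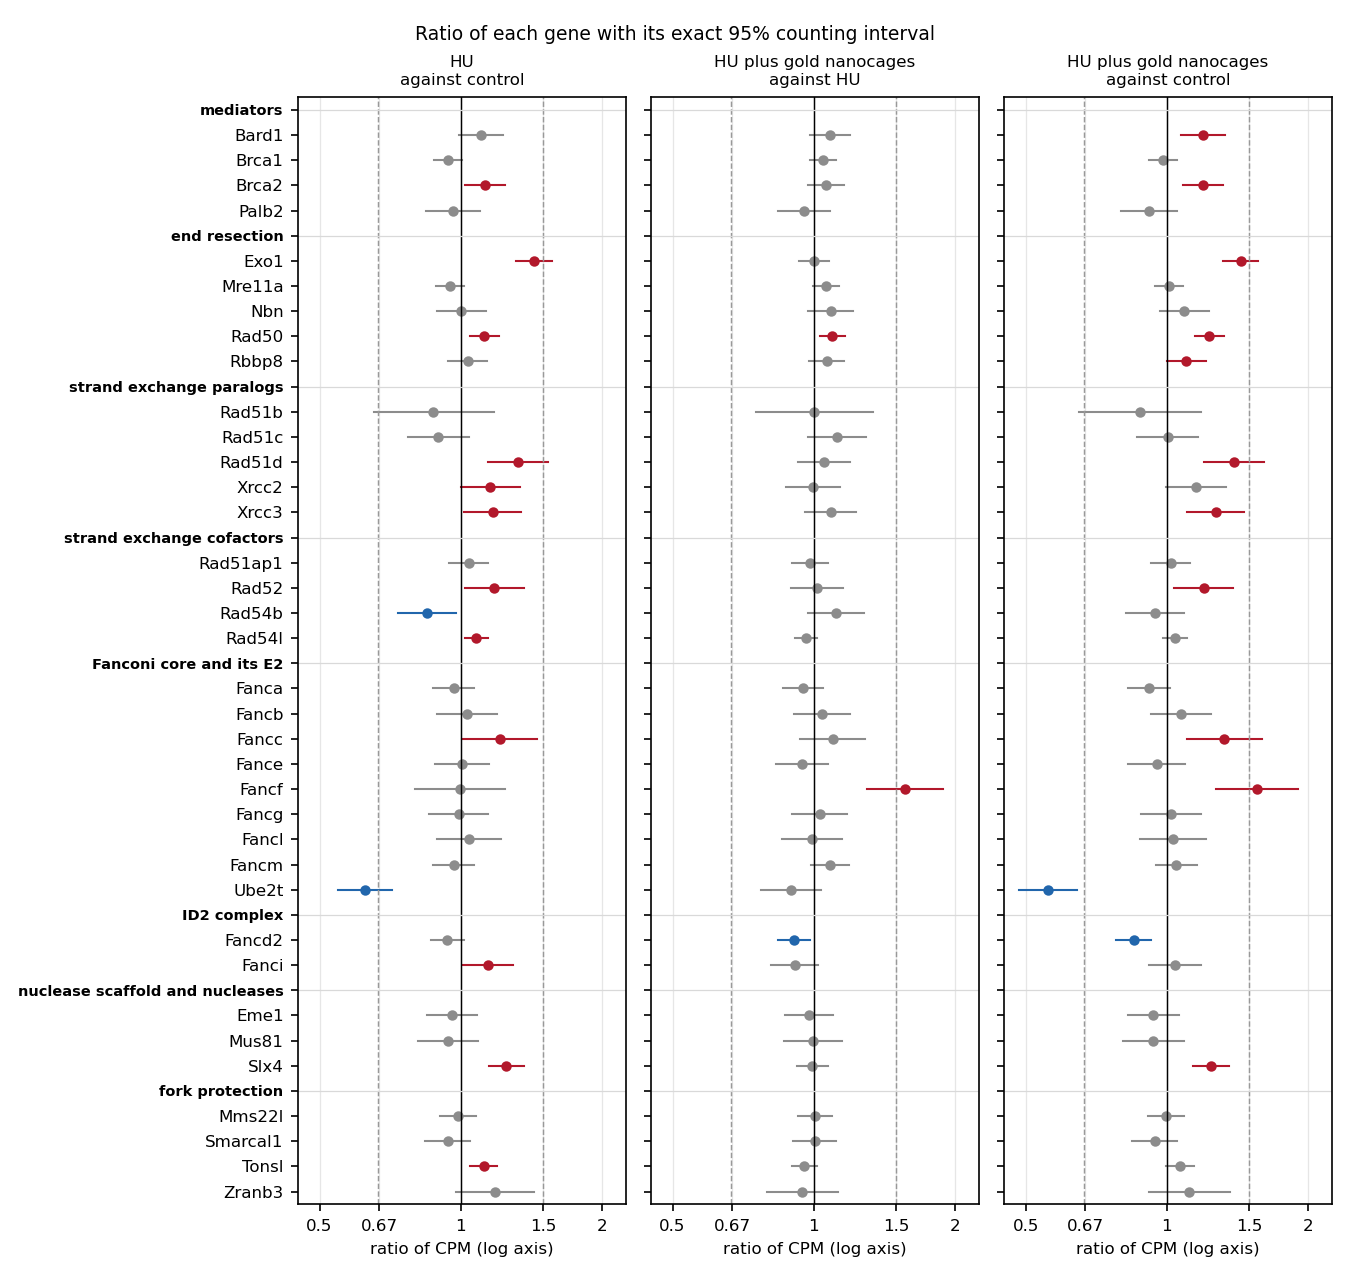
Ratio of CPM (log axis) of each gene in the 3 contrasts, with exact 95% counting intervals as bars; red is above, blue below and grey within counting error, and dashed lines mark 1.5-fold. Ube2t lies at 0.626 and 0.559 in the contrasts with control, and Fancf lies at 1.56 in HU plus gold nanocages against HU.

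HU plus gold nanocages was set against HU because the study presents the particles as protecting cells from HU damage. No culture received nanocages without HU. An effect of the particles themselves and a change in the response to HU therefore cannot be told apart. Of the 36 genes, 33 were within counting error in this contrast. Above it were 2 (5.56%), Rad50 and Fancf, beside 8.35% of 10849 genes, and below it 1 (2.78%), Fancd2, beside 7.78%; with 99% intervals Fancd2 was within counting error. At least 1.5-fold higher was 1, beside 1.36%, and none was 1.5-fold lower, beside 1.32%. The median log2 ratio was 0.01, against 0.00 over all 10849 genes, and 31 of the 36 genes lay within 1.1-fold of 1. Here too the share of all genes within 1.1-fold was not computed.

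Fancf, a core complex subunit that links its partners, stood apart. It had 286 reads and 9.07 FPKM in HU plus gold nanocages, against 197 reads and 5.81 FPKM in HU, and 148 reads and 5.84 FPKM in control. The library with nanocages was thus high and the other two were alike. Against HU the ratio was 1.56 (1.30 to 1.88). Among 7744 genes with mean CPM between the lowest and the highest of the 36, 7 (0.0904%), Fancf included, were at least 1.5-fold higher in this contrast. That share was 0.367% of 9548 protein-coding genes and 1.36% of all 10849 genes. Fancf was named because of its value, so these shares are no test of it. Fancf spans chr7:51860577-51862267 of GRCm38, on the minus strand, and its exons form a single block. Of 220 protein-coding genes with 1 exon block and a mean of 1 FPKM or more, 1.82% reached 1.5-fold higher in this contrast, against 0.332% of 9328 with 2 or more blocks, and the median ratio of both sets was 1.00. The part of the single block in the result was not tested. Its exons overlap those of Gas2, on the other strand, over 253 bases, and Gas2 had 232, 248 and 193 reads in HU plus gold nanocages, HU and control. The part of that overlap in the result was not tested. The further core subunits were close to HU: Fanca, Fancb, Fancc, Fance, Fancg, Fancl and Fancm were within counting error, at 0.945 for Fance to 1.10 for Fancc. Of the pair identified by gene ID, Faap100 was above counting error, with 683 reads and 7.03 FPKM in HU plus gold nanocages against 646 reads and 6.18 FPKM in HU (1.14-fold, 1.02 to 1.27). Faap24 had 842 and 830 reads in HU plus gold nanocages and HU, a ratio of 1.09 (0.990 to 1.20) that counting error covers.

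Rad50 was at 19.57 FPKM from 1961 reads in HU plus gold nanocages, against 17.85 FPKM from 1924 reads in HU (1.10-fold, 1.03 to 1.17). Its partners Mre11a (1.06, 0.999 to 1.13) and Nbn (1.09, 0.974 to 1.22) had ratios on the same side of 1, within counting error. Fancd2 was at 7.74 FPKM from 1146 reads in HU plus gold nanocages, against 8.54 FPKM from 1359 reads in HU. That is 1.10-fold lower (1.02 to 1.19), and its partner Fanci had a ratio of 0.911 (0.812 to 1.02). Ube2t, the gene lowest against control in HU, also had the lowest ratio of the 36 in this contrast, in which the HU library enters again, at 0.893 (0.771 to 1.03), within counting error. Genes well above control in HU were near 1: Exo1 had a ratio of 1.00 (0.930 to 1.08), Rad51d one of 1.05 (0.928 to 1.19) and Slx4 one of 0.992 (0.920 to 1.07). These genes were named for their ratios in HU, and the HU library enters this contrast too.

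**Figure D3:**
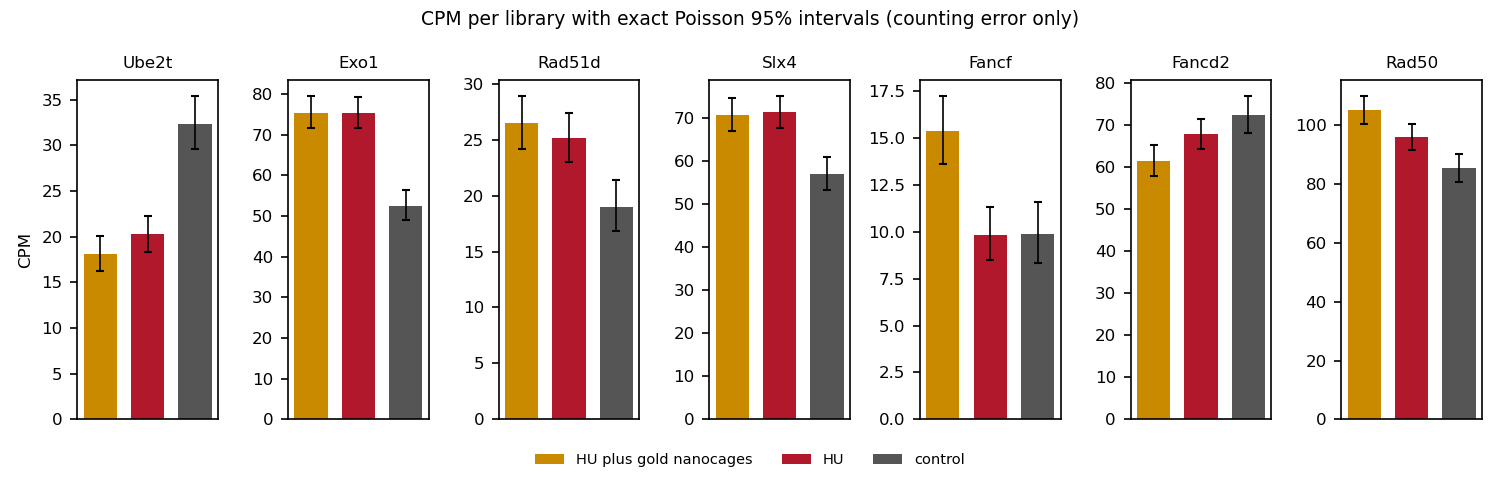
CPM of 7 genes in the 3 libraries, as bars from 0 with exact Poisson 95% intervals that cover counting error only. Ube2t is highest in control, Exo1, Rad51d and Slx4 are lowest in control, and Fancf is highest in HU plus gold nanocages, at 15.3 CPM.

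HU plus gold nanocages against control shares its control library with the contrast of HU, so their values are given side by side and the likeness of the contrasts is no result. Above counting error were 11 genes (30.6%), beside 19.6% of all genes, and below it 2 (5.56%), beside 20.1%. At least 1.5-fold higher was Fancf, beside 5.28%, and at least 1.5-fold lower was Ube2t, beside 3.24%. Ube2t had 337 reads and 3.74 FPKM in HU plus gold nanocages against 485 reads and 6.70 FPKM in control, 1.79-fold lower (1.55 to 2.06), where HU alone was 1.60-fold lower. Exo1 was 1.44-fold higher (1.32 to 1.57) with nanocages and 1.43-fold higher in HU alone. Rad51d was 1.39-fold higher (1.20 to 1.62) and 1.32-fold higher, and Slx4 1.24-fold (1.14 to 1.35) and 1.25-fold higher, in the same order. All 4 genes were thus on the same side of control in both libraries given HU.

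A few genes passed counting error in one of these contrasts and not in the other, which does not show that the contrasts differ. Bard1 was 1.19-fold higher (1.07 to 1.33) with nanocages and 1.10-fold in HU, and Rbbp8 1.10-fold (1.00 to 1.21) and 1.03-fold. These calls are unsteady: Rbbp8 lost its call against control under median-of-ratios scaling and when the length trend was subtracted, and under the length setting Bard1 gained one in HU. Fancd2 was 1.18-fold lower (1.08 to 1.28) with nanocages. Xrcc2, Rad54l, Fanci, Tonsl and Rad54b were within counting error with nanocages, although Xrcc2 and Tonsl passed it once the length trend was subtracted. Faap100 was 1.36-fold higher (1.20 to 1.54) and Faap24 1.16-fold lower (1.05 to 1.28) with nanocages than in control. In all, 18 of the 36 genes were within counting error in all 3 contrasts, among them Brca1, Palb2, Mre11a, Nbn, Rad51c, Mus81 and Mms22l. The share of all genes with that pattern was not computed, so the count cannot be read as a trait of these genes.

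**Figure D4:**
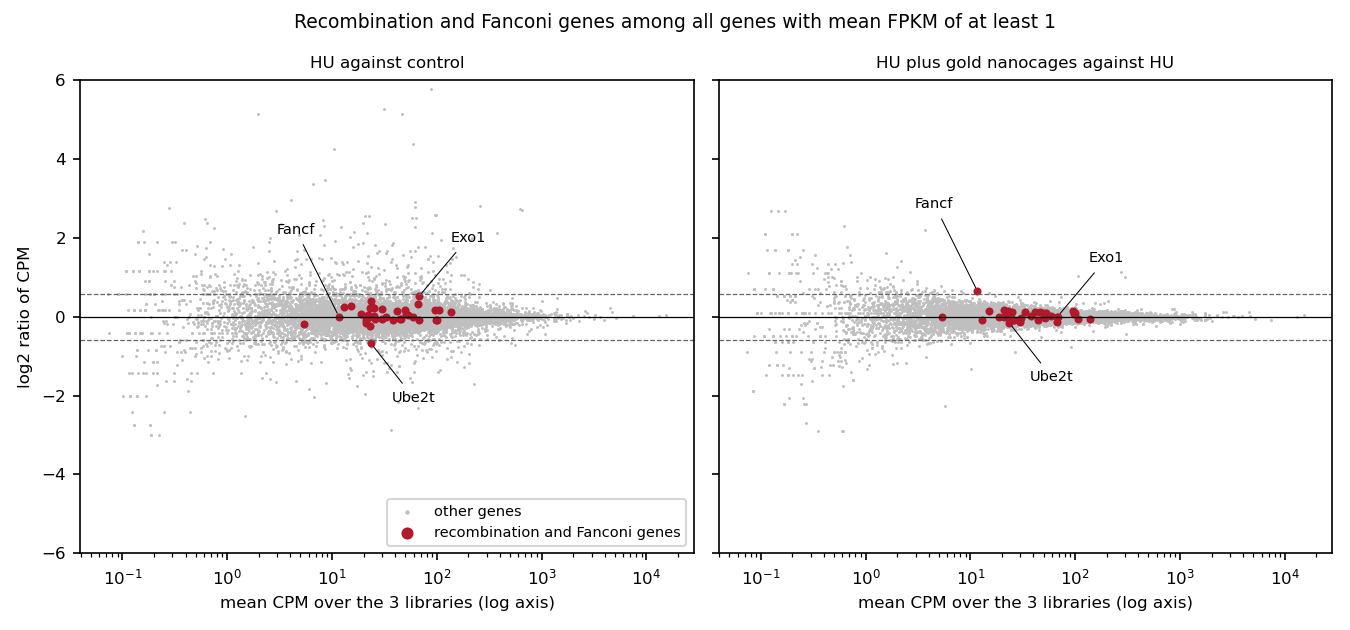
Log2 ratio of CPM against mean CPM (log axis) for every gene at a mean of 1 FPKM or more (grey) and the 36 genes (red); dashed lines mark 1.5-fold, and 26 genes (HU against control) and 18 genes (HU plus gold nanocages against HU) without a finite ratio or beyond 6 log2 units are not drawn. Of the red points, Ube2t on the left and Fancf on the right lie past the dashed lines. Of all genes, 3.12% lie past the lower line on the left and 1.36% past the upper line on the right.

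Other recombination and crosslink repair genes, taken from a list of 40 of which 39 had a row, were set beside the 36. In HU against control 8 (21.6%) of the 37 that reached a mean of 1 FPKM were above counting error, beside 18.7% of the 10849 genes. Below it were 6 (16.2%), beside 20.1%, and the median log2 ratio was -0.02. Dna2, the other long-range resection nuclease, was 1.26-fold higher (1.19 to 1.33), and Rpa2, a subunit of the single-strand binding protein, 1.22-fold (1.14 to 1.30). The resolvase gene Gen1 was 1.26-fold lower (1.11 to 1.42). Past 1.5-fold were Rmi2, a subunit of the BLM dissolvase, with 150 reads in HU and 51 in control (2.20-fold higher, 1.59 to 3.08), and Parpbp, an inhibitor of recombination, with 401 reads in HU and 635 in control (2.12-fold lower, 1.87 to 2.41). Of the end joining genes, which rejoin ends without a template, 3 of 15 were above and 4 below counting error, with a median of -0.05. Dclre1c, which encodes the Artemis nuclease, was at 2.69 FPKM in HU and 5.03 FPKM in control (1.87-fold lower, 1.66 to 2.10).

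In HU plus gold nanocages against HU, 4 (10.8%) of the 37 other recombination genes were above and 1 (2.7%) below counting error. The shares of all genes were 8.35% and 7.78%, and the median log2 ratio of this list was 0.04. None of the 15 end joining genes passed counting error, with a median of 0.00. Rmi2 had a ratio of 1.02 (0.804 to 1.29), Parpbp one of 0.912 (0.787 to 1.06) and Dclre1c one of 1.09 (0.961 to 1.23). Against control these lists had 10 above and 4 below of 37, and 3 above and 2 below of 15.

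**Figure D5:**
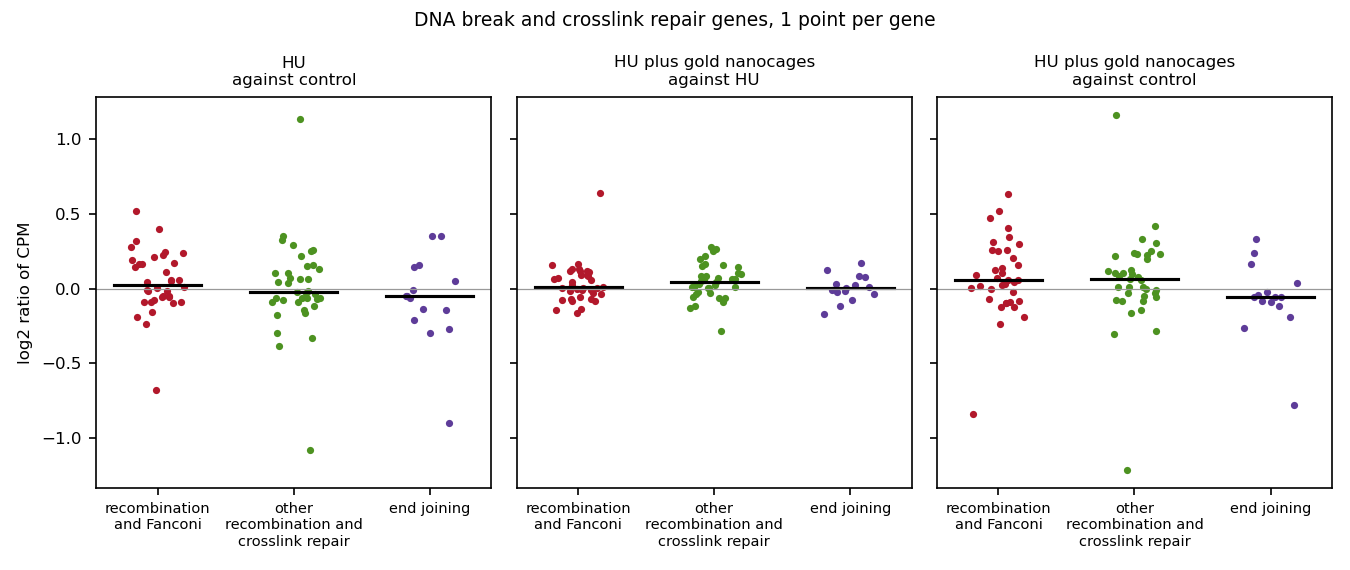
Log2 ratio of CPM of the 36 genes, 37 other recombination and crosslink repair genes and 15 end joining genes, all at a mean of 1 FPKM or more, in the 3 contrasts; each point is a gene and black lines are medians. The medians lie between -0.06 and 0.07, and the spread is narrowest in HU plus gold nanocages against HU.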

How the data were processed

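RNA sequencing libraries of 3 cultures, 1 per condition, were compared. The deposited table holds unnormalized read counts and the authors' FPKM, which equals the count divided by exonic gene size and library total within rounding for 100% of genes. Exonic sizes, an other type of column, are bases per the file headers. The submitters' processing notes name HISAT2 2.0.1, HTSeq 0.6.1, SAMtools 0.1.18, cutadapt and DESeq, and build mm10. Their roles, the annotation release and whether counting used strand were not stated there. Reads of 12 listed genes, Faap24 included, whose exons overlap a protein-coding gene on the other strand therefore cannot be assigned with certainty.

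CPM was the count over the summed count, and the main measure the plain CPM ratio with no pseudocount. Calls used an interval that excludes 1 or a ratio of at least 1.5, among genes at a mean of 1 FPKM or more. The design had 1 library per group, so no test was made. Scaling alternatives came from edgeR 4.0.16 (TMM) and DESeq2 1.42.0 (median of ratios); intervals were computed with scipy 1.17.1 and tested on simulated data. Coordinates come from GENCODE M21, which holds 98.0% of the table's gene IDs, 80.1% of these with equal exonic size. A floor of 3 counts is 0.161, 0.150 and 0.200 CPM in HU plus gold nanocages, HU and control. One gene of the further recombination list enters its counts and is not reported by name here. The members and lists were chosen with earlier results of these data known. The naming rule covered genes at least 1.5-fold apart from control and those past counting error with nanocages; other genes named, and the exon-block and overlap values, were chosen after their values were seen.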

Additional observations from a re-analysis of the deposited data

How the results depend on the processing

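No paired analysis was possible because each condition is 1 library. TMM and median-of-ratios scaling moved each contrast by at most 0.005 on the log2 scale and turned no gene that was past counting error. With a mean FPKM of at least 5, Ube2t and Rad54b were left out: in HU against control 0 genes were at least 1.5-fold lower and 0 below counting error, and in HU plus gold nanocages against control 0 and 1 were. With a pseudocount of 1 FPKM, 0 genes were at least 1.5-fold lower in HU against control, and 0 were at least 1.5-fold higher in HU plus gold nanocages against HU and against control. At a threshold of 2-fold these 3 counts, and that of genes lower in HU plus gold nanocages than in control, were 0. Without a filter on low levels all 36 genes were counted as before. Among genes in the members' range of mean CPM, the shares at least 1.5-fold lower were 1.92% in HU against control, 0.0775% in HU plus gold nanocages against HU and 1.82% in HU plus gold nanocages against control. With 99% intervals, 6 genes were above and 1 below counting error in HU against control, and 0 below in HU plus gold nanocages against HU. Shares of all genes with 99% intervals were not computed. None are given for the higher FPKM filter, the pseudocount, the 2-fold threshold or the length setting either. The counts under these settings therefore cannot be read as a trait of the 36 genes. After subtraction of the length trend, 1 gene was below counting error in HU against control, without Rad54b, while Bard1 became above it. In HU plus gold nanocages against control Rbbp8 lost its call under that setting and under median-of-ratios scaling, and Xrcc2 and Tonsl gained one after the length trend was subtracted. The medians moved by less than the counting interval of a typical gene under every setting run, which is a loose bound for a median of 36 genes. The median log2 ratio ran from 0.022 to 0.043 in HU against control. It ran from 0.002 to 0.012 in HU plus gold nanocages against HU, and from 0.052 to 0.069 in HU plus gold nanocages against control. About 1.13-fold is the median upper bound relative to the ratio in HU against control, so smaller differences were often not detectable at this depth, and the spread between cultures is unknown.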
